A study of Homo sapiens with 16 samples.

Results

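The HOX cluster genes were described here across the 8 groups of libraries made from A549 and H2023, a pair of established human lung cancer cell lines. The set held 38 of the 18227 genes in the deposited tables, chosen by symbol: every gene named HOXA, HOXB, HOXC or HOXD with a number, every antisense transcript named for one of these clusters, and the long noncoding RNAs HOTAIR, HOTTIP and HOTAIRM1 where they were listed. In A549 libraries labelled ZC3H12A knockout, genes at the low-numbered end of HOXA (HOXA3, HOXA4, HOXA5 and the noncoding HOTAIRM1) rose in at least 1 culture. HOXB8 rose in the oncosphere culture, and HOXA11-AS fell there. In H2023 no member passed the test in either culture, and none of the 18227 genes did. In the authors' deposited tables, however, HOXC13 passed in normal culture and HOXD8 in both cultures. The lines themselves differed in part of HOXA: in both cultures HOXA9, HOXA10 and HOXA11 were higher in H2023 and HOXA2 and HOXA3 higher in A549.

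The libraries came from wild-type cells and from cells with a knockout of ZC3H12A, which encodes Regnase-1, an RNase known for degrading mRNAs of inflammation. Both genotypes of both lines were grown for 3 days under normal conditions or for 7 days under stem-cell-enriched conditions, called oncosphere culture here after the sample titles. The 8 groups were therefore A549 wild type normal, A549 knockout normal, A549 wild type oncosphere, A549 knockout oncosphere and the same 4 of H2023, with 2 libraries in each. Culture and days change together, so an effect of the culture conditions and an effect of time in culture cannot be told apart. The titles name 1 knockout clone per line, so the effect of the edit and other properties of that clone cannot be told apart. The labels do not say whether the libraries of a group came from separate cultures, and the p-values below measure only the spread between these libraries.

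HOX genes encode homeodomain transcription factors that set positional identity along the body axis of the embryo. They lie in clusters in which gene order follows the order of expression along the axis, and genes with the same number in different clusters are paralogs. In adult epithelia, lung included, the expressed set tends to be kept from development, and Polycomb and trithorax group proteins maintain it. HOX proteins bind DNA together with PBX and MEIS cofactors, and retinoic acid is an inducer of the low-numbered genes.

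In GRCh38, with GENCODE release 29 positions, the 14 HOXA members lay on chromosome 7 (minus strand). The 11 HOXB members spanned 188 kb of chromosome 17 (minus strand), the 11 HOXC members 121 kb of chromosome 12 (plus strand) and the 2 HOXD members 23.5 kb of chromosome 2 (plus strand). The strand given is that of the coding genes, and HOTAIRM1, HOXA-AS3, HOXA11-AS, HOXB-AS1, HOXB-AS3, HOXC-AS1, HOXC-AS2 and HOXC13-AS are the 8 noncoding members. The coding members covered 29 symbols, 1 of which, HOXC5, had a second identifier annotated as a processed transcript. Of the 39 coding HOX symbols 10 were not analysed here, among them HOXB1, HOXC11, HOXC12 and all HOXD genes but HOXD4 and HOXD8, and HOTAIR and HOTTIP were not analysed here either. Gene bodies in these clusters overlap: 21 members overlapped another member on the same strand and 23 on the opposite strand. HOXB7 as annotated spanned HOXB8 and HOXB9, and HOXA3 spanned HOXA4, HOXA5 and HOXA6. HOXA9 and HOXA10 shared 4590 bases on the same strand, and HOXA11 shared 717 bases with HOXA11-AS. The library kit keeps strand, per the labels, but whether the counting used strand is not given in the sources used here. Values of members that overlap on opposite strands are uncertain to that extent. Strand cannot separate members that overlap on the same strand, so their values may share reads under either setting.

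The 250 bases before a RefSeq start are shown for 4 members on which the contrasts below turn. HOXA4 rose in A549 libraries labelled knockout, HOXA9 and HOXA11 set the lines apart, and HOXD8 was higher in H2023 libraries labelled knockout. The HOXA9 start used lies inside the GENCODE gene body, which spans chr7:27162435-27175180. Sequences are from RefSeq (GRCh38.p14), given in the direction of transcription, at chr7:27130758-27131007 (minus strand), chr7:27165538-27165787 (minus), chr7:27185233-27185482 (minus) and chr2:176129455-176129704 (plus). Capitals mark CCAAT, the letters of the CCAAT box, on either strand (ATTGG on the printed one).
HOXA4: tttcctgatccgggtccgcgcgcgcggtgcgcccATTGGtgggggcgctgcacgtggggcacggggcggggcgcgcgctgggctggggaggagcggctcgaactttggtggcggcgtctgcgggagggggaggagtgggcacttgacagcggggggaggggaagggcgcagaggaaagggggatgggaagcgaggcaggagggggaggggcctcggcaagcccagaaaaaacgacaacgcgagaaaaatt
HOXA9: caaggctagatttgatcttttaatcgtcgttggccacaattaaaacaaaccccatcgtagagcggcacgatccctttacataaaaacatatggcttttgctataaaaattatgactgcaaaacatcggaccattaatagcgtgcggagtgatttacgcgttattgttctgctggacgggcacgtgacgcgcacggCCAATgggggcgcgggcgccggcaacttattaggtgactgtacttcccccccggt
HOXA11: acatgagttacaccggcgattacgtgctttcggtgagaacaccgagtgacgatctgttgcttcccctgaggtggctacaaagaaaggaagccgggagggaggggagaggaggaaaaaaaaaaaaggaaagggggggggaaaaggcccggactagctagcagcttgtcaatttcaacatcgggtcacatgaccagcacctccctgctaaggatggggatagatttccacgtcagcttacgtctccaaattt
HOXD8: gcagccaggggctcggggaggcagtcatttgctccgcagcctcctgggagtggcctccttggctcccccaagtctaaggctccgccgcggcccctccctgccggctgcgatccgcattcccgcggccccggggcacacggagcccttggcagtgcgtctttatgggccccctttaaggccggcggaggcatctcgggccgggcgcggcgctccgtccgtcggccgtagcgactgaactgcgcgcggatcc

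HOXD8 and HOXA4 held 28 and 26 CpG dinucleotides in these bases, HOXA9 held 20 and HOXA11 held 11, with GC contents of 72.4%, 70.0%, 48.8% and 51.6%. RefSeq windows of 300 bases, 250 before and 50 after the start, were at hand for 17 members, 24 windows in all, several of them of the same gene (HOXA3 with 7) or shared (HOXC4 and HOXC5 have 1 window in common, and those of HOXA11 and HOXA11-AS share 275 bases). CCAAT stood in 14 of the 24 windows, against 34.6% of all 35116 promoter windows. TGATNNAT, the letters of a PBX-HOX site, stood in 2 of 24 (7.40% of all windows), and AGGTCA, a retinoic acid receptor half-site, in 0 of 24 (13.8% of all windows), each searched on both strands. None of the 3 motifs contains another, though matches may overlap at their ends. The median CpG count was 15 in the members' windows, with a range of 0 to 44, and 14 in all windows. These matches describe letters and not binding.

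Series-wide facts that bear on the members are these. Libraries summed to 991838 to 998125 TPM (a level scaled by gene length and by the total of the library), 13824 to 14508 genes reached 1 TPM, and mitochondrial genes held 10.3% to 25.6% of TPM. Sequencing depth is unknown, because TPM does not keep it. ZC3H12A mRNA was lower in libraries labelled knockout in A549 normal culture, at 18.4 ± 2.14 TPM (SD, n = 2) against 32.8 ± 2.94 in wild type. It was higher in the other 3 comparisons, at 57.9 ± 3.23 against 48.8 ± 0.488 TPM in A549 oncosphere culture, 41.5 ± 0.0424 against 28.3 ± 2.17 in H2023 normal and 81.9 ± 18.0 against 29.5 ± 4.33 in H2023 oncosphere culture, so directions below refer to the libraries as labelled. Of the lung and epithelial markers 7 of 9 were measured and summed to 2574 to 13034 TPM per library. Of the fibroblast list 4 of 7 were measured, summing to 1.6 to 10.3 TPM. The blood list was represented by CD68 alone, at 28.7 to 179 TPM, and the endothelial list by PECAM1 alone, at 0 to 2.76 TPM.

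In every H2023 group most HOX members at 1 TPM or more were higher in replicate 1 than in replicate 2. In the normal group of the knockout label, 64.7% of all genes were so too. In the H2023 wild-type oncosphere group, replicate 1 lay above replicate 2 in 26 of 29 members at 1 TPM or more, by a median of 0.58 on the log2 scale, while 52.6% of all genes did so. The HOX sum there was 164 ± 49.6 TPM (SD, n = 2), the widest spread of the 8 groups, against 210 ± 13.5 TPM in A549 wild-type oncospheres. In the other H2023 groups replicate 1 was above replicate 2 in 20 of 27 members (wild type, normal), 20 of 29 (knockout label, normal) and 22 of 29 (knockout label, oncosphere), against 50.9%, 64.7% and 51.2% of all genes. In A549 the counts were 6 of 25 (wild type, normal), 12 of 26 (knockout label, normal), 19 of 30 (wild type, oncosphere) and 16 of 28 (knockout label, oncosphere), against 58.2%, 49.3%, 55.9% and 49.6% of all genes. Some results below rest on the H2023 wild-type oncosphere group. Of these, counts of calls, the HOXD8 fold change and the line gaps of HOXA3, HOXB3, HOXB9 and HOTAIRM1 are given also without each library of that group. Other gaps between the lines, those of HOXA9 and HOXA11 included, are not. Differences of knockout effects between the lines rest on the authors' deposited tables, from which a library cannot be left out.

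HOX genes were expressed at low to moderate levels in every library. Their TPM summed to between 129 and 290 per library, with a median of 191, and between 24 and 31 members reached 1 TPM in a library. Of the 38 members, 18 reached 1 TPM in all 16 libraries, 14 had a group mean of at least 10 TPM, and HOXC-AS2 alone had no group mean of 1 TPM. HOXA and HOXB held most of the signal. In A549 wild type in normal culture HOXA summed to 51.7 ± 3.88 TPM (SD, n = 2), HOXB to 69.3 ± 6.02, HOXC to 22.1 ± 0.898 and the HOXD genes to 4.70 ± 1.00. The corresponding H2023 sums were 74.9 ± 10.3, 60.0 ± 8.82, 29.5 ± 2.74 and 7.24 ± 2.74 TPM, so the HOXA and HOXC sums lay above those of A549 by more than the SDs, while the HOXB sums differed by about as much as the replicates did. With 2 libraries against 2 no test of a single sum was made.

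The leading members differed between the lines. Averaged over the 4 groups of A549, HOTAIRM1 was at 26.8 TPM (12.8% of the HOX total), followed by HOXB7 at 24.4, HOXA3 at 19.7, HOXB8 at 17.5 and HOXB6 at 14.0 TPM. HOTAIRM1 came above HOXB7 through the A549 oncospheres labelled knockout, at a group mean of 50.8 against 22.8 TPM, and HOXB7 was the higher of the pair in the other A549 groups. The same oncospheres lifted the HOXB8 average, at 37.1 TPM against group means of 8.82 to 12.6 TPM elsewhere in A549. In H2023 the order was HOXB7 at 27.2 TPM (15.2%), HOXA10 at 19.3, HOXB6 at 15.1, HOXA9 at 12.2 and HOXD8 at 9.01 TPM. HOXB7 and HOXB6, neighbours in the middle of HOXB, were thus among the highest in both lines. HOXB7 lay between 19.2 and 34.5 TPM in A549 libraries and between 20.6 and 35.9 TPM in H2023 libraries, and these ranges overlapped. HOXB6 ranged from 9.84 to 20.8 TPM in A549 and from 10.4 to 21.4 TPM in H2023, again overlapping. The heat map of levels shows these members as bright bands across all libraries, beside blocks that are bright in 1 line only.

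**Figure D1:**
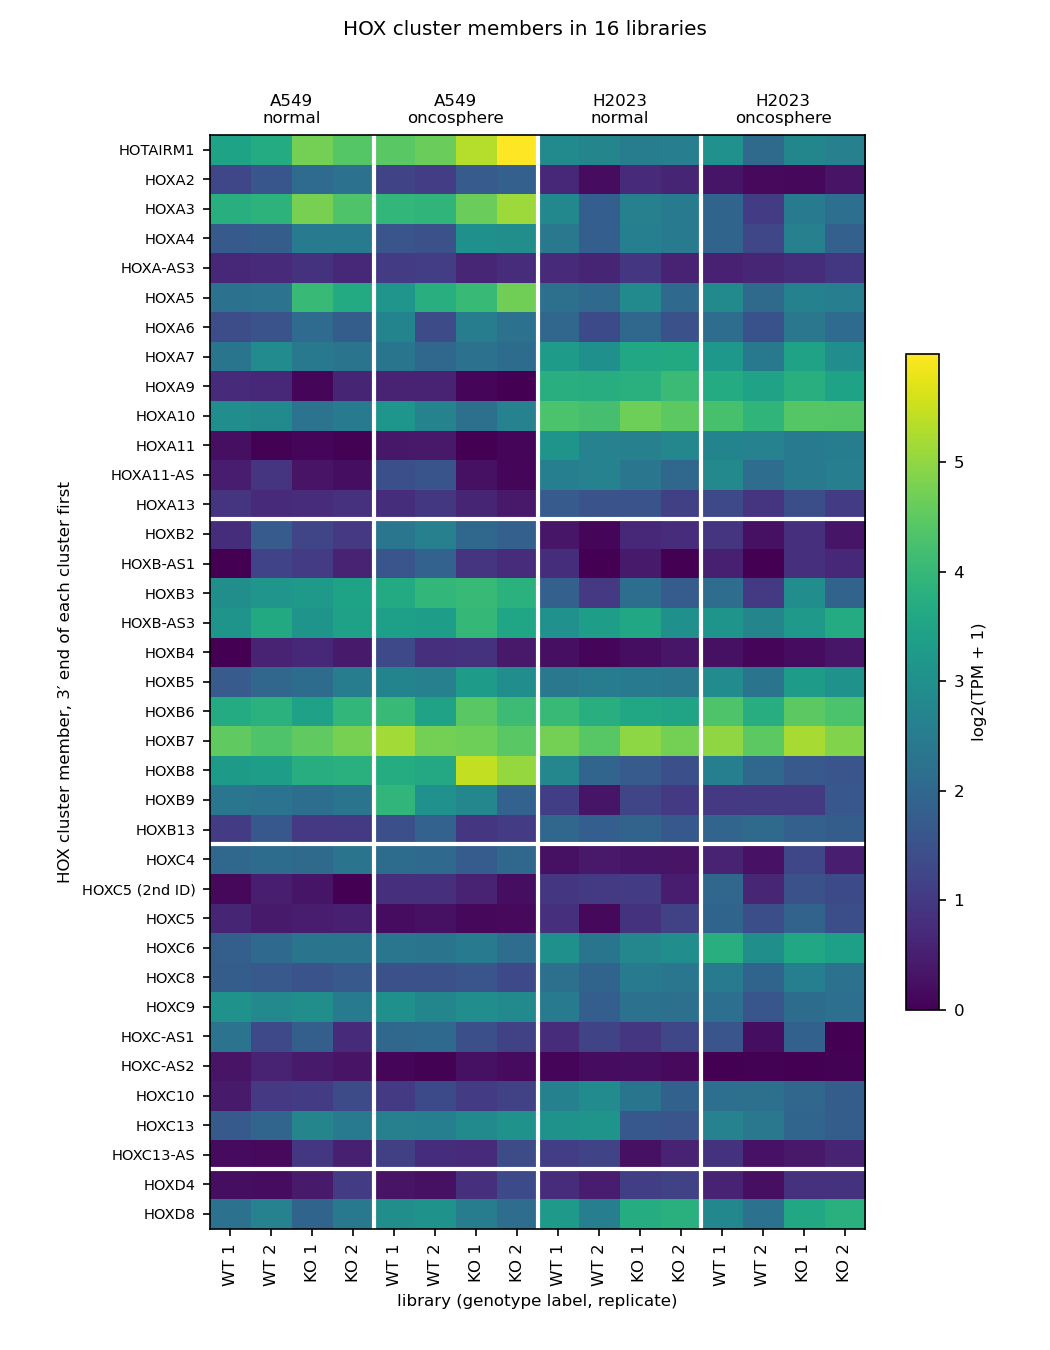
Level of 37 of the HOX members (vertical axis, in cluster order) in the 16 libraries (horizontal axis, by line, culture and genotype), as log2(TPM + 1). HOXB6 and HOXB7 were high in both lines, HOXA9 and HOXA11 were below 1 TPM in A549 and above it in H2023, and HOTAIRM1, HOXA3 and HOXB8 had their highest group means in A549 oncospheres labelled knockout.

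The first question was which HOX genes differed between knockout and wild type in A549. In normal culture the low-numbered end of HOXA was higher in the libraries labelled knockout, led by HOXA5, a regulator of lung development, and by HOTAIRM1, a noncoding RNA transcribed antisense at the low-numbered end of the cluster. HOXA5 (ENSG00000106004, chr7:27141052-27143668, minus strand) was at 3.80 and 3.89 TPM in wild type and at 15.4 and 11.7 TPM under the knockout label. HOTAIRM1 (ENSG00000233429, chr7:27095647-27100265, plus strand) was at 10.2 and 11.8 TPM in wild type and at 25.8 and 20.2 TPM. For both genes every library labelled knockout lay above every wild-type library, by more than the gap between replicates. The log2 fold change, on the log2(TPM + 1) scale, which understates the change of low genes, came to 1.58 for HOXA5 (SE 0.20, limma adjusted p = 0.016) and 1.00 for HOTAIRM1 (SE 0.17, limma adjusted p = 0.029). These were the 2 of 38 members that passed, both higher, against 10.8% of all genes called in either direction, 4.54% higher and 6.28% lower. In bulk RNA a change in the share of cells that express a gene and a change in RNA per cell cannot be told apart.

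HOXA2, HOXA3 and HOXA4 stood above wild type in normal culture without passing. HOXA3 was at 12.7 and 13.6 TPM in wild type and at 26.1 and 19.2 TPM under the knockout label (log2 fold change 0.72, SE 0.18, limma adjusted p = 0.063). HOXA4 was at 2.23 and 2.42 against 4.66 and 4.44 TPM (0.74, SE 0.19, limma adjusted p = 0.065), and HOXA2 at 1.43 and 2.02 against 3.26 and 3.78 TPM (0.74, SE 0.21, limma adjusted p = 0.084). In none of these did the genotypes overlap. All 4 of HOXA2 to HOXA5 had a log2 fold change above 0, with a median of 0.74, and none of HOXA9, HOXA10, HOXA11 and HOXA13 did, with a median of -0.21. HOXA13 alone among the latter came to just above 0 (0.01 and 0.05) when TPM was rescaled without mitochondrial genes or centred on the library median. HOXA4 and HOXA5 lie within HOXA3 on the same strand, and HOXA9 overlaps HOXA10, so these counts are not of fully separate measurements. The median was 0.10 over all 38 members and -0.03 over all genes. In the same 4 libraries the 7 epithelial markers summed to 9176 and 9348 TPM in wild type and to 2574 and 5013 TPM under the knockout label, with 1 gene called higher and 4 lower. Their part in the HOXA values was not tested.

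The authors' deposited table for A549 normal culture, with an adjusted p-value for 32 members, called 5 members higher and 0 lower, against 22.1% of its genes called, 11.2% higher and 10.9% lower. In the authors' deposited table these were HOXA5 (log2 fold change 1.48, adjusted p = 7.89e-06), HOXA3 (0.79, adjusted p = 0.00132), HOTAIRM1 (1.08, adjusted p = 0.00446), HOXC13 (1.03, adjusted p = 0.0105) and HOXA2 (1.12, adjusted p = 0.0446). HOXA5 and HOTAIRM1 were thus past the threshold by both tests. Without any 1 of the 4 libraries limma called none of the 38 members in this or in the other 3 knockout comparisons, and no more than 38 of all genes.

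In oncosphere culture 4 members rose in the A549 libraries labelled knockout and 3 fell, 18.4% of the members, against 13.2% of all genes called, 6.04% higher and 7.2% lower. Those that rose were HOXA3, HOXA4, HOTAIRM1 and HOXB8, and those that fell were HOXA9, HOXA11-AS and HOXB-AS1. HOXB8 (ENSG00000120068, chr17:48611377-48614939, minus strand), a mid-cluster HOXB gene known for keeping myeloid progenitors undifferentiated, had the lowest adjusted p. It was at 11.97 and 11.3 TPM in wild type and at 42.2 and 32.0 TPM under the knockout label. This is a log2 fold change of 1.58 (SE 0.17, limma adjusted p = 0.0072). HOXB7, annotated across HOXB8, went the other way without passing, at 34.5 and 25.9 TPM in wild type and 24.5 and 21.0 TPM under the knockout label.

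HOXA4 (ENSG00000197576, chr7:27128507-27130799, minus strand) was at 2.01 and 1.81 TPM in wild type oncospheres and at 7.03 and 6.84 TPM in those labelled knockout, a log2 fold change of 1.45 (SE 0.18, limma adjusted p = 0.011). HOXA3 (ENSG00000105997, chr7:27106184-27152581, minus strand) was at 14.6 and 14.2 against 23.7 and 33.8 TPM (0.93, SE 0.19, limma adjusted p = 0.038). HOTAIRM1 was at 21.0 and 23.6 against 39.2 and 62.5 TPM (1.12, SE 0.23, limma adjusted p = 0.038). The genotypes were separate for each of the 3, while the 2 libraries labelled knockout differed most from one another in HOTAIRM1. HOXA5 was at 7.66 and 12.7 TPM in wild type and 15.4 and 24.6 TPM under the knockout label, apart but not past the threshold (0.91, SE 0.31, limma adjusted p = 0.12). All 4 of HOXA2 to HOXA5 again lay above 0, with a median of 0.92.

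The high-numbered end of HOXA lay lower in the same oncosphere libraries. HOXA11-AS (ENSG00000240990, chr7:27184507-27189298, plus strand), a noncoding RNA antisense to HOXA11, was at 1.77 and 1.94 TPM in wild type and at 0.20 and 0.05 TPM under the knockout label, a log2 fold change of -1.35 (SE 0.15, limma adjusted p = 0.0082). HOXA9 (ENSG00000078399, chr7:27162435-27175180, minus strand), best known as a leukaemia oncogene, was at 0.51 and 0.49 TPM against 0.07 and a listed 0 (-0.54, SE 0.11, limma adjusted p = 0.041). HOXA11 itself was at 0.31 and 0.32 TPM against a listed 0 and 0.07 (-0.35, SE 0.11, limma adjusted p = 0.10). These levels are low, below 1 TPM in all 4 libraries for HOXA9 and HOXA11. All 4 of HOXA9 to HOXA13 in the tables had a log2 fold change below 0, with a median of -0.42, while the median was -0.04 over the 38 members and 0.03 over all genes. The HOXA9 call did not pass over the 8 libraries of the line (adjusted p = 0.07), with a replicate block (0.06) or in the authors' deposited table (adjusted p = 0.122).

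HOXB-AS1, a noncoding RNA antisense to HOXB2 and HOXB3, was at 2.00 and 2.68 TPM in wild type oncospheres and at 0.86 and 0.70 TPM in those labelled knockout (log2 fold change -0.90, SE 0.19, limma adjusted p = 0.038). Its call was lost over the 8 libraries of the line (limma adjusted p = 0.12) and in the authors' deposited table (adjusted p = 0.32). Other members were separate without passing limma: HOXB9 at 14.3 and 7.22 against 5.84 and 2.69 TPM, HOXB13, a regulator of prostate and tail identity, at 1.74 and 2.71 against 0.94 and 1.09 TPM, and HOXD8 at 6.84 and 7.25 against 4.68 and 3.42 TPM. The authors' deposited table, with adjusted p-values for 36 members, called 7 higher and 4 lower, against 20.7% of its genes (9.29% higher and 11.4% lower). In the authors' deposited table the higher ones included HOXB8 (1.49, adjusted p = 1.22e-07), HOXA4 (1.98, adjusted p = 5.13e-05), HOTAIRM1 (1.19, adjusted p = 6.95e-04), HOXA5 (1.10, adjusted p = 0.00279), HOXA3 (0.68, adjusted p = 0.0207) and HOXB6 (0.69, adjusted p = 0.0458). Lower in the authors' deposited table were HOXA11-AS (-3.73, adjusted p = 0.0047), HOXB9 (-1.35, adjusted p = 0.00968), HOXB13 (-1.16, adjusted p = 0.0317) and HOXD8 (-0.85, adjusted p = 0.038). CD68, the only measured gene of the 6 on the blood list, was at 117 to 179 TPM in these wild-type libraries. In those labelled knockout it was at 29.7 to 44.5 TPM, called lower by limma with a log2 fold change of -1.97. Its part in the HOX values was not tested.

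Several members called in no knockout comparison by either tool had these ranges. HOXA7 lay between 3.01 and 6.35 TPM in A549 and between 4.37 and 11.5 TPM in H2023, and HOXA6 between 1.56 and 5.48 TPM over all 16 libraries. HOXB4 did not exceed 1.51 TPM in any library. In HOXC, HOXC9 ranged from 4.45 to 7.31 TPM in A549 and from 2.03 to 4.41 TPM in H2023, and HOXC8 from 1.49 to 2.41 TPM in A549 and from 2.83 to 4.96 TPM in H2023, so the lines did not overlap for either gene. HOXC6 reached 12.4 TPM in an H2023 wild-type oncosphere library and lay between 2.52 and 4.41 TPM in A549. Among noncoding members HOXB-AS3, which overlaps HOXB3 to HOXB6 on the other strand, was at 5.66 to 14.8 TPM, HOXC-AS1 at 0 to 3.84 TPM and HOXA-AS3 at 0.47 to 1.14 TPM.

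**Figure D2:**
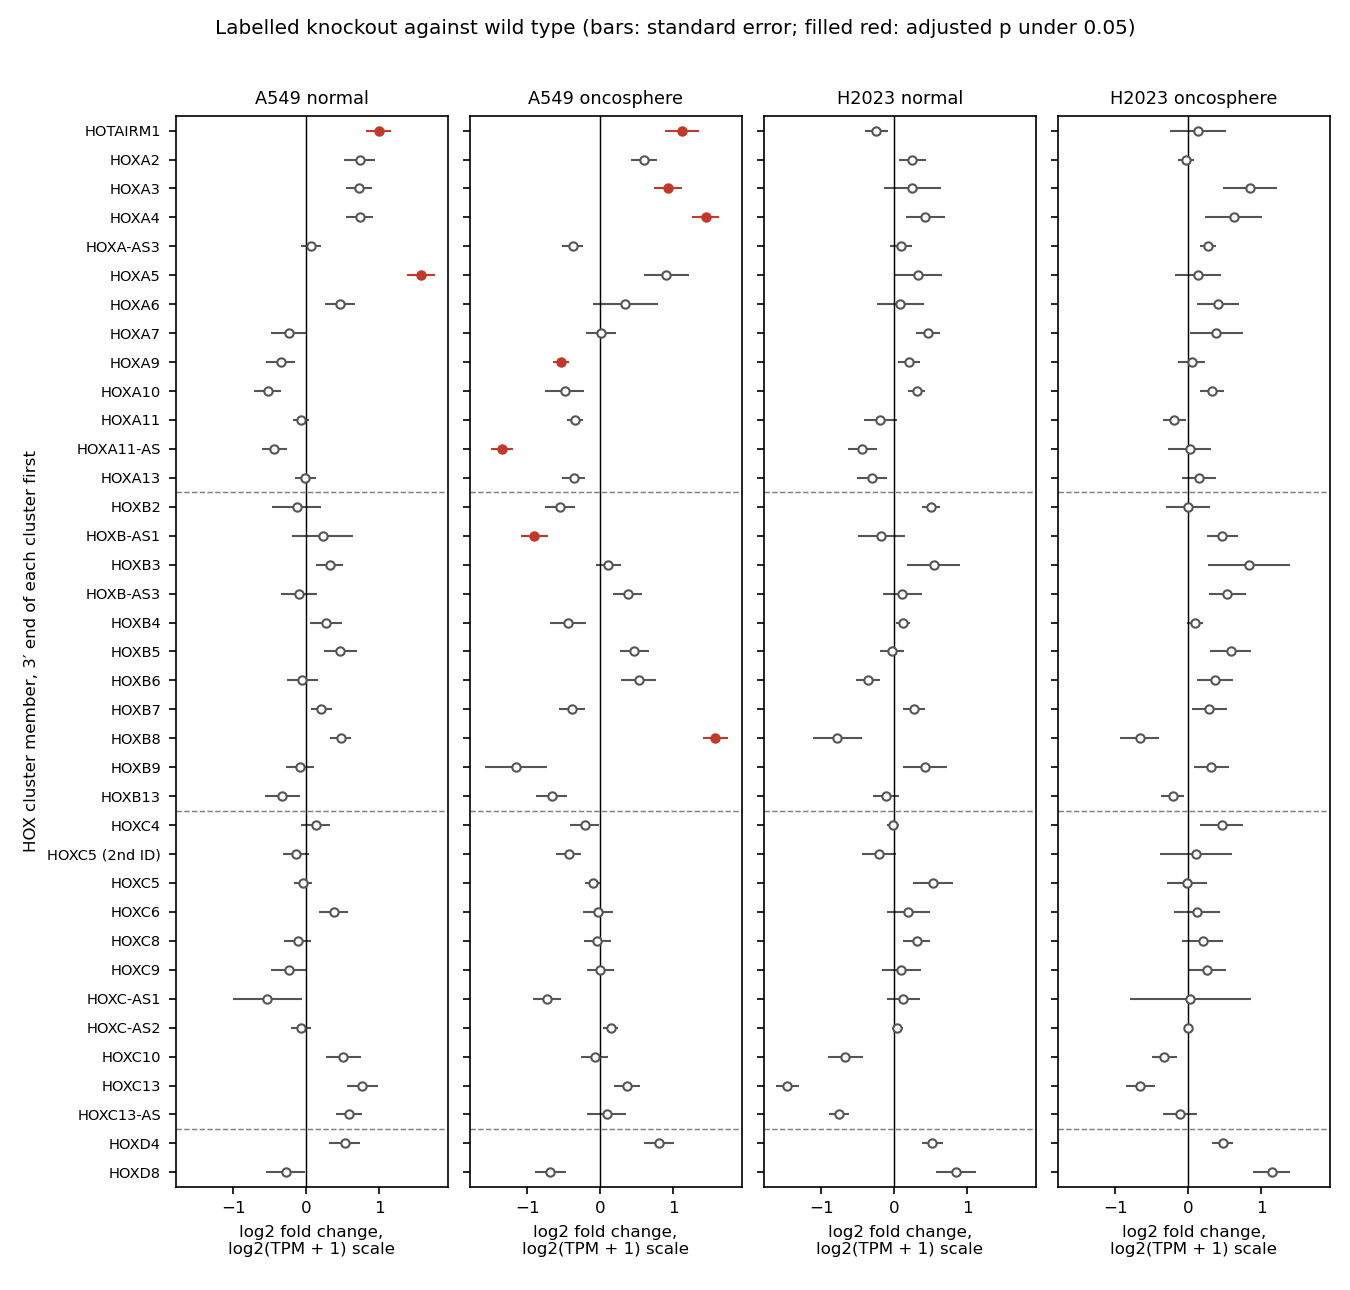
Log2 fold change of libraries labelled knockout over wild type, log2(TPM + 1) scale (horizontal axis), for 37 HOX members (vertical axis) in the 4 combinations of line and culture. Points are limma estimates, bars are ± 1 standard error, and filled red points have an adjusted p under 0.05: 2 in A549 normal culture, 7 in A549 oncosphere culture and 0 in either H2023 panel.

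Separation of the libraries by genotype was also counted, as a description with no test. In A549 normal culture 15 of 38 members had both libraries labelled knockout above both wild-type ones and 4 had both below, against 27.2% and 34.6% of all genes. In A549 oncosphere culture 13 were above and 16 below, against 32.7% and 27.8%. In H2023 the counts were 10 above and 8 below in normal culture (26.1% and 24.5% of all genes) and 8 above and 5 below in oncosphere culture (28.6% and 18.9%). HOXD4 was the member with libraries labelled knockout above wild type in all 4 comparisons. It was at 0.14 to 0.69 TPM in wild-type libraries and at 0.36 to 1.55 TPM in those labelled knockout, and passed the test in none. The share of all genes above wild type in all 4 comparisons was not counted, so HOXD4 is not shown to stand out.

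In H2023 no member passed limma in normal or oncosphere culture. The background was 0.0% in both, since no gene at all passed, although 3314 and 2828 genes had an unadjusted p under 0.05, and so had 7 and 3 of the members. HOXC13 (ENSG00000123364, chr12:53938765-53946544, plus strand), a regulator of hair and nail keratins, and HOXD8 (ENSG00000175879, chr2:176129694-176132695, plus strand) had the largest fold changes on the log2(TPM + 1) scale, HOXC13 in normal and HOXD8 in oncosphere culture, where with a pseudocount of 0.1 HOXB-AS1, at 0 to 0.76 TPM, came out above HOXD8. HOXC13 was at 7.35 and 7.56 TPM in wild type in normal culture and at 2.12 and 2.00 TPM under the knockout label (log2 fold change -1.47, SE 0.16, limma adjusted p = 0.12). In oncosphere culture it was at 5.29 and 4.23 against 2.89 and 2.41 TPM (-0.66, SE 0.20, limma adjusted p = 0.28). The genotypes were separate in both cultures, by far more than the replicate gap in normal culture. The normal-culture difference passed under 3 other settings: a filter at a mean of 1 TPM (adjusted p = 0.012), median centring (0.024) and the 8 libraries of the line (0.032).

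HOXD8 in H2023 was at 8.49 and 4.93 TPM in wild type and at 12.1 and 12.99 TPM under the knockout label in normal culture (log2 fold change 0.85, SE 0.27, limma adjusted p = 0.25). In oncosphere culture it was at 5.97 and 3.82 against 10.8 and 13.01 TPM (1.15, SE 0.26, limma adjusted p = 0.24). Again no libraries overlapped. Without wild-type replicate 1 the oncosphere value was 1.41 (limma adjusted p = 0.43) and without replicate 2 it was 0.88 (limma adjusted p = 0.46). The authors' deposited tables called HOXC13 lower (-1.84, adjusted p = 5.44e-09) and HOXD8 higher (0.91, adjusted p = 0.022) of 31 members in H2023 normal culture, against 10.8% of genes (3.84% higher and 6.97% lower). In oncosphere culture the authors' deposited table called HOXD8 (1.23, adjusted p = 0.00737) of 33 members, against 5.07% of genes (2.22% higher and 2.85% lower). HOXC13-AS, antisense to HOXC13 and sharing 879 bases with it, was at 1.17 and 1.35 TPM in wild type and 0.21 and 0.48 TPM under the knockout label in normal culture (-0.75, SE 0.14, limma adjusted p = 0.16). HOXB8 lay below wild type in both cultures, at 5.86 and 2.89 against 2.27 and 1.77 TPM and at 5.03 and 2.98 against 2.19 and 1.99 TPM (limma adjusted p = 0.32 and 0.35).

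**Figure D3:**
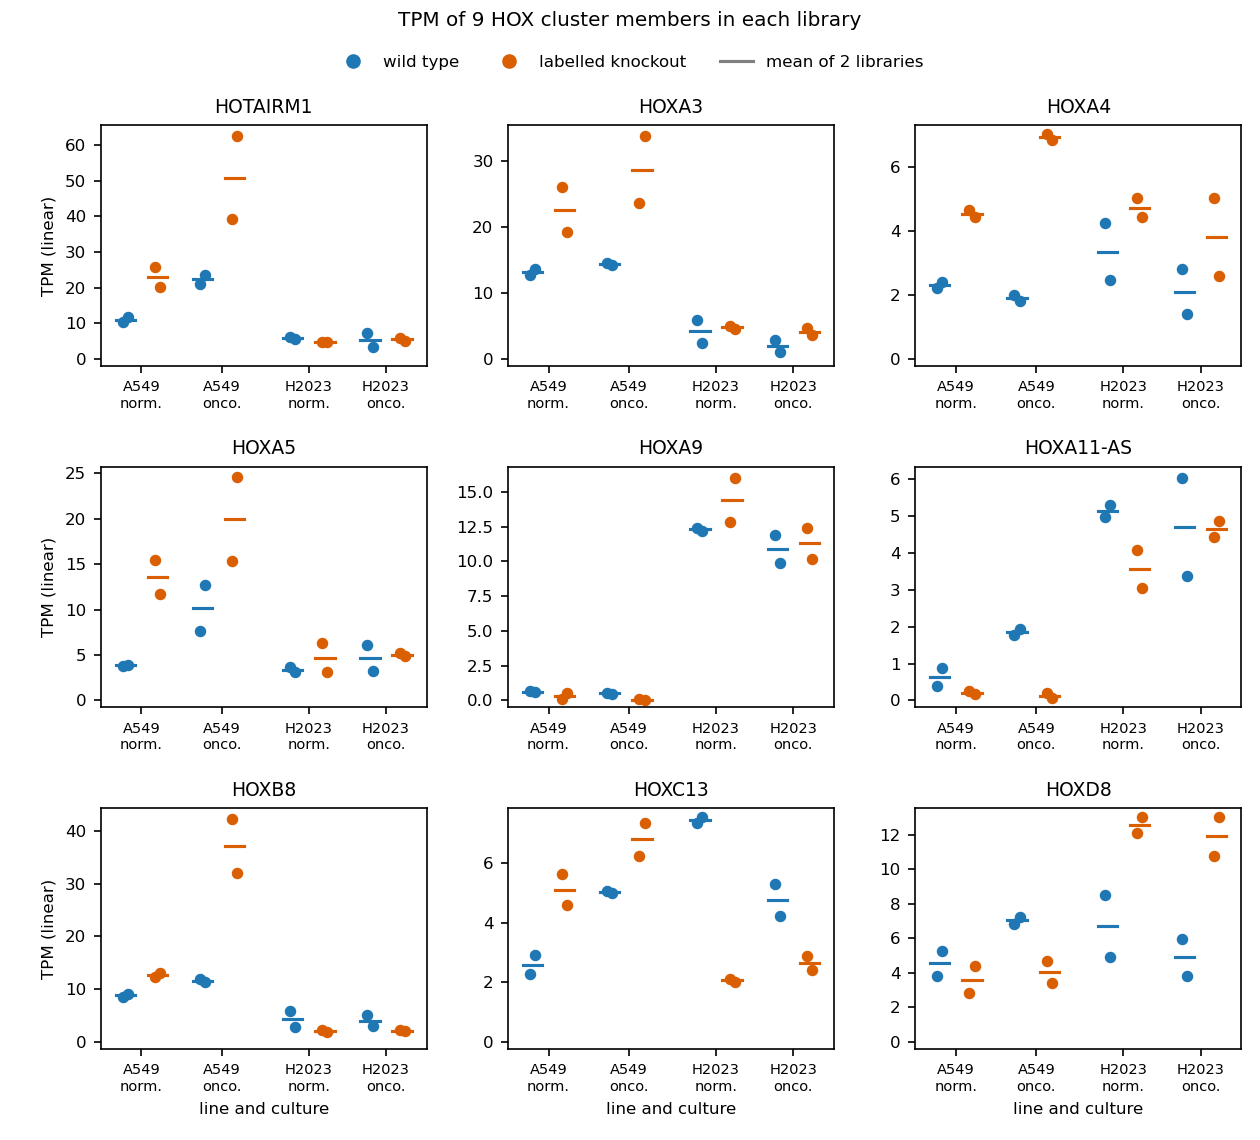
TPM (vertical axes, linear) of 9 HOX members in the 8 groups (horizontal axis). Points are libraries and short lines are group means, blue for wild type and orange for the knockout label: HOXB8 reached 42.2 and 32.0 TPM in A549 oncospheres labelled knockout, and HOXC13 in H2023 normal culture was at 7.35 and 7.56 TPM in wild type and 2.12 and 2.00 TPM for the knockout label, a difference that limma did not call.

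Whether a knockout difference was itself different between cultures was tested within each line. In A549 HOXB8 was the 1 member called (2.63% of members, against 6.65% of all genes, 3.52% in the direction of HOXB8 and 3.13% in the other), with a difference of 1.11 on the log2 scale between the oncosphere and the normal effect (SE 0.22, limma adjusted p = 0.031). Its normal-culture values were 8.55 and 9.08 TPM in wild type and 12.3 and 12.99 TPM under the knockout label, a smaller gap than in oncospheres. The adjusted p was 0.0436 to 0.0977 with 1 library left out at a time, and passed only without oncosphere replicate 2 of the knockout label. No member was called in H2023, where no gene passed (0.0%), 1294 genes and 1 member having an unadjusted p under 0.05. The other members' differences between cultures, HOXA4 and HOXA5 included, did not pass, so their calls in 1 culture and not in the other are not shown to differ.

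Between the lines, the difference of effects (H2023 minus A549) was computed from the log2 fold changes and standard errors in the authors' deposited tables. In normal culture HOXC13 (-2.87, SE 0.43, adjusted p = 1.64e-09) and HOXB8 (-1.62, SE 0.588, adjusted p = 0.0411) differed by the values of the authors' deposited tables, 5.26% of members against 15.3% of genes (7.0% above and 8.27% below 0). In oncosphere culture HOXD8 (2.08, SE 0.46, adjusted p = 1.61e-04), HOXB8 (-2.23, SE 0.576, adjusted p = 0.00177), HOXA11-AS (3.64, SE 1.17, adjusted p = 0.0194) and HOXC13 (-1.33, SE 0.428, adjusted p = 0.0195) differed by the same measure from the authors' deposited tables, 10.5% against 12.9% (6.96% above and 5.9% below 0). HOXC13 thus lay above wild type in A549 libraries labelled knockout (5.62 and 4.59 against 2.26 and 2.90 TPM in normal culture) and below it in H2023. HOXB8 showed the same pair of directions in both cultures. HOXD8 lay lower in A549 oncospheres labelled knockout and higher in those of H2023.

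The next comparison was between cultures. In A549 wild type 12 members rose from normal to oncosphere culture and 1 fell, 34.2% of members against 40.6% of all genes (19.0% higher and 21.6% lower). HOXB supplied most of them, with 7 of its 11 members called higher, a median log2 fold change of 0.78 over the cluster and 10 of 11 above 0. All 4 of HOXB2, HOXB3, HOXB4 and HOXB5 rose. The medians were 0.35 over the 38 members and -0.01 over all genes. Centring libraries on their medians raised the members' values by 0.13, which left 16 called higher and 0 lower. Over all 18227 genes centring gave 4525 higher and 3065 lower, in place of 3460 and 3932. Without 1 library at a time the count of 13 came to 5 without oncosphere replicate 1, 6 without oncosphere replicate 2, 2 without normal replicate 1 and 10 without normal replicate 2.

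HOXB2, a hindbrain gene, was at 0.73 and 2.29 TPM in A549 wild type in normal culture and at 4.10 and 5.08 TPM in oncospheres, a log2 fold change of 1.22 (SE 0.30, limma adjusted p = 0.013). HOXB9 was at 4.08 and 3.89 against 14.3 and 7.22 TPM (1.17, SE 0.35, limma adjusted p = 0.031). HOXB3 was at 6.77 and 7.67 against 11.7 and 14.7 TPM (0.78, SE 0.18, limma adjusted p = 0.0092). No libraries of the 2 cultures overlapped for these genes, and the pair of HOXB9 oncosphere libraries lay far apart. In HOXA, HOXA5 went from 3.80 and 3.89 to 7.66 and 12.7 TPM (1.17, SE 0.28, limma adjusted p = 0.012) and HOTAIRM1 from 10.2 and 11.8 to 21.0 and 23.6 TPM (0.96, SE 0.22, limma adjusted p = 0.0098). HOXA11-AS also rose, from 0.39 and 0.89 to 1.77 and 1.94 TPM (0.82, SE 0.17, limma adjusted p = 0.007), as did HOXC13 (0.76, SE 0.19, limma adjusted p = 0.015). HOXC-AS2 was the 1 member that fell (-0.37, SE 0.13, limma adjusted p = 0.048), at levels below 0.5 TPM, and it was not called when libraries were centred or rescaled without mitochondrial genes.

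In A549 libraries labelled knockout 3 members rose with oncosphere culture, 7.89% against 20.8% of all genes (10.9% higher and 9.87% lower). HOXB8 rose from 12.3 and 12.99 TPM to 42.2 and 32.0 TPM (log2 fold change 1.47, SE 0.16, limma adjusted p = 7.82e-04), HOTAIRM1 from 25.8 and 20.2 to 39.2 and 62.5 TPM (1.08, SE 0.22, limma adjusted p = 0.011) and HOXB5 from 3.36 and 4.71 to 8.89 and 6.68 TPM (0.80, SE 0.22, limma adjusted p = 0.036). HOTAIRM1 and HOXB5 thus rose in both genotypes of A549. Without 1 library at a time the count of 3 came to 1 or 2, and to 1 without normal replicate 2 of the knockout label. These comparisons share their libraries with the genotype comparisons above and are not independent of them.

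In H2023 few members were called between cultures. Both oncosphere libraries lay above both normal ones for 1 of 38 members in wild type and 11 in the knockout label. They lay below for 6 and 9. Of all genes 14.6% and 22.7% lay above and 46.1% and 42.9% below. HOXC5 rose in wild type (1 of 38, 2.63% against 21.4% of all genes, 3.96% of them higher and 17.4% lower), from 0.77 and 0.10 TPM to 2.78 and 1.71 TPM (log2 fold change 1.20, SE 0.30, limma adjusted p = 0.036). HOXB6 rose in the libraries labelled knockout (1 of 38, 2.63% against 26.9% of all genes, 7.68% higher and 19.2% lower), from 11.1 and 10.4 to 21.4 and 18.7 TPM (0.84, SE 0.22, limma adjusted p = 0.035). For these 2 entries the libraries did not overlap between cultures. The second HOXC5 identifier was not called and did overlap in wild type, at 0.93 and 1.01 TPM in normal culture and 2.91 and 0.55 TPM in oncospheres. Over all genes the median of this contrast was -0.18 in wild type and -0.12 in the knockout label, and centring raised the members' values by 0.26 and 0.17. The HOXC5 call was lost with a pseudocount of 0.1 and without replicate 2 of either wild-type group, which left 0 members called, and 1 member was called without replicate 1. The HOXB6 call was lost without replicate 1 of either group or replicate 2 of the normal group of the knockout label, again leaving 0.

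The last comparison set wild-type H2023 against wild-type A549. HOXA9, HOXA10 and HOXA11 were higher in H2023, and HOXA2, HOXA3 and several HOXB genes were higher in A549, in both cultures. HOXA4 and HOXA5 were not called in normal culture, and both lines expressed genes from both ends of HOXA. In normal culture 8 members were higher in H2023 and 7 lower, 39.5% against 35.4% of all genes (22.8% higher and 12.6% lower). In oncosphere culture 8 were higher and 14 lower, 57.9% against 42.3% (20.3% higher and 22.0% lower). Each line stands for 1 origin, so the values describe these 2 lines only. Leaving out 1 library at a time changed the normal-culture count of 15 to 14 and 9 (without H2023 replicate 1 and 2) or 10 and 8 (without A549 replicate 1 and 2), and the oncosphere count of 22 to 20 and 16 or 11 and 14 in the same order. Median centring changed the normal-culture split to 8 higher and 10 lower by lowering the members' values by a median of 0.16 (-0.16 as a shift). All genes then split into 2987 higher and 3383 lower, in place of 4155 and 2302.

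HOXA9 was at 0.65 and 0.61 TPM in A549 wild type and at 12.4 and 12.2 TPM in H2023 wild type in normal culture, a log2 difference of 3.03 (SE 0.18, limma adjusted p = 7.4e-05). HOXA11 (ENSG00000005073, chr7:27181510-27185223, minus strand) was at 0.18 and 0.03 against 7.59 and 5.29 TPM (2.74, SE 0.20, limma adjusted p = 1.6e-04). HOXA10, a regulator of uterine and limb development, was at 6.69 and 6.14 against 18.6 and 17.7 TPM (1.37, SE 0.20, limma adjusted p = 0.0022). The lines were separate for all 3. HOXA13, a gene of the distal limb and urogenital tract, had lower levels in both lines, at 0.91 and 0.64 against 2.30 and 1.90 TPM (0.81, SE 0.20, limma adjusted p = 0.017). In oncosphere culture HOXA9, HOXA10 and HOXA11 stayed called (2.98, 1.15 and 2.29) and HOXA13 was not (0.23, limma adjusted p = 0.39). HOXC10, a hindlimb gene, was also higher in H2023, at 0.35 and 0.99 against 5.19 and 6.44 TPM (2.05, SE 0.24, limma adjusted p = 9.4e-04).

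Higher in A549 were HOXC4, HOXA2, HOXA3 and several HOXB members. HOXC4 was at 3.05 and 3.31 TPM in A549 and at 0.20 and 0.33 TPM in H2023 wild type in normal culture (log2 difference -1.73, SE 0.17, limma adjusted p = 4.5e-04). HOXA3 was at 12.7 and 13.6 against 5.89 and 2.44 TPM (-1.54, SE 0.38, limma adjusted p = 0.017), and HOXB3 at 6.77 and 7.67 against 2.57 and 0.99 TPM (-1.62, SE 0.41, limma adjusted p = 0.018). The lines did not overlap, though the H2023 replicates differed from one another more than those of A549. HOXB9, at 4.08 and 3.89 against 1.15 and 0.26 TPM, and HOXB8, at 8.55 and 9.08 against 5.86 and 2.89 TPM, were also lower in H2023 (-1.60, limma adjusted p = 0.01; -0.93, limma adjusted p = 0.049). In oncospheres the HOXB8, HOXB9, HOXA3 and HOXB3 gaps were -1.36, -2.47, -2.45 and -2.24, all called, and HOTAIRM1 joined them (-1.99, SE 0.29, limma adjusted p = 0.0016), at 21.0 and 23.6 against 7.17 and 3.22 TPM. Without H2023 replicate 1 or 2 the oncosphere gaps were -2.90 and -2.01 for HOXA3, -2.80 and -1.67 for HOXB3, -2.46 and -2.49 for HOXB9 and -2.46 and -1.51 for HOTAIRM1, and each stayed past the threshold. No HOXB member was called higher in H2023 in either culture, and 4 and 6 of the 11 were called lower. The shares of all genes were 22.8% higher and 12.6% lower in normal culture, and 20.3% and 22.0% in oncospheres.

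**Figure D4:**
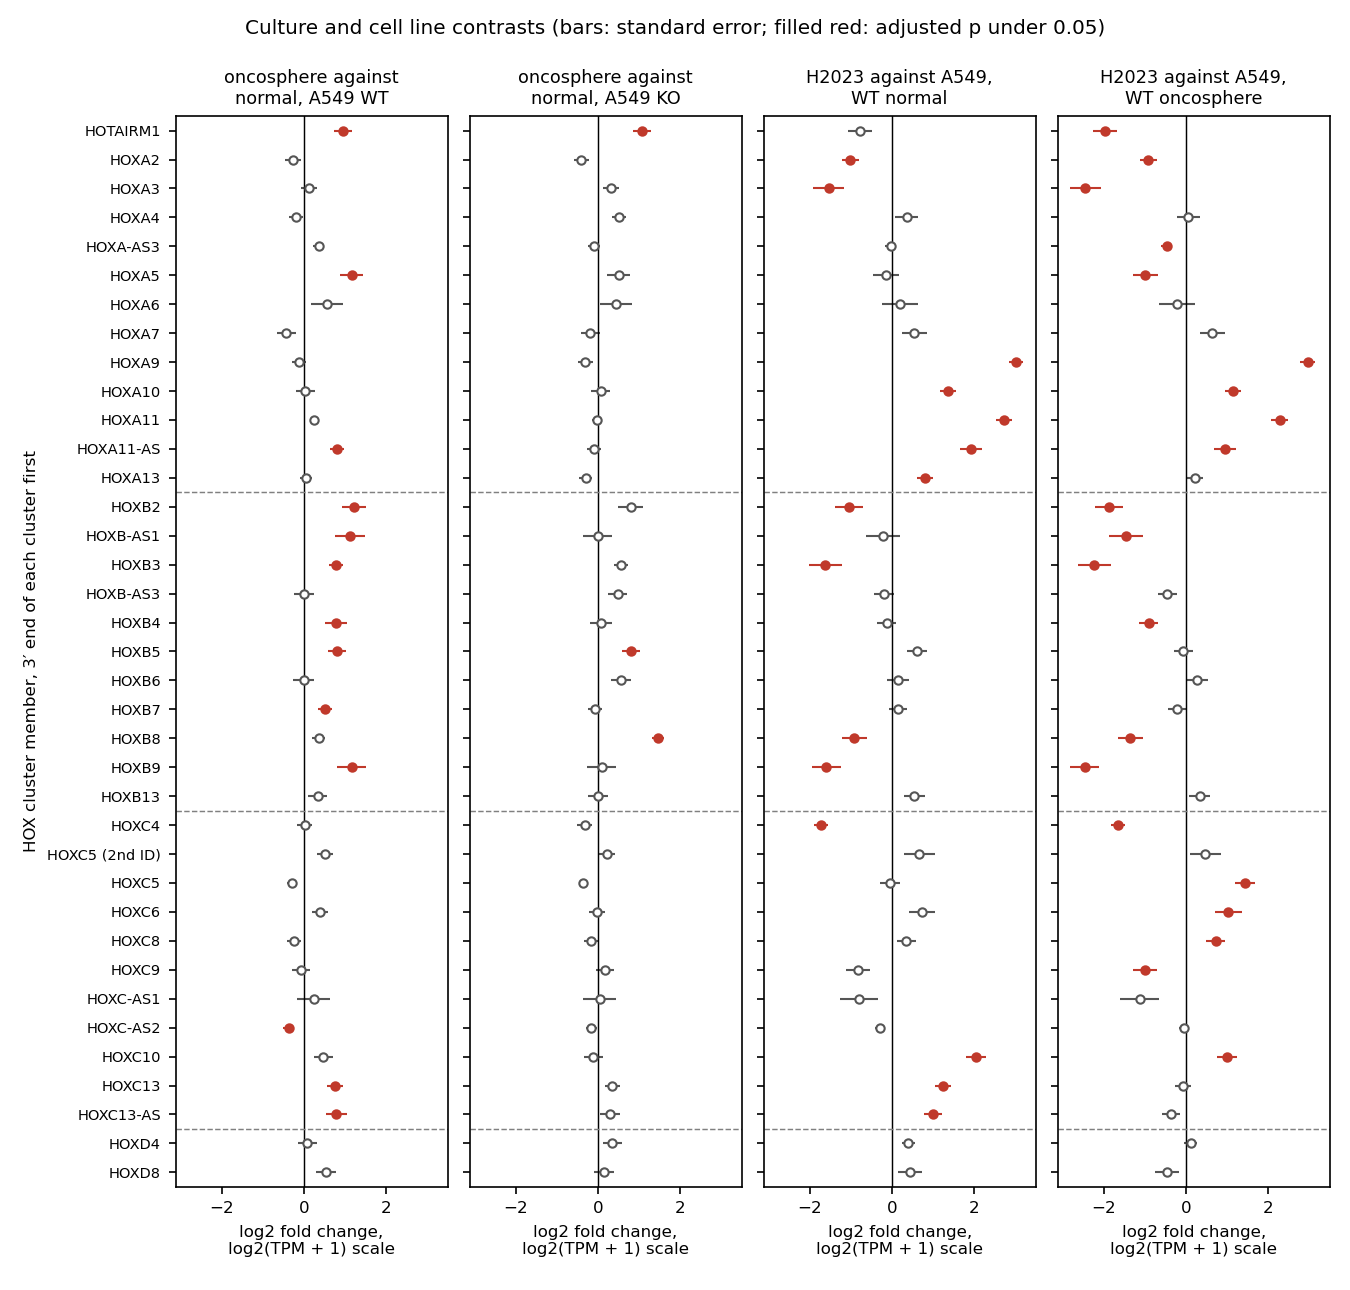
Log2 differences, log2(TPM + 1) scale (horizontal axis), of 37 HOX members (vertical axis): oncosphere over normal culture in A549 wild type and in A549 of the knockout label, and H2023 over A549 wild type in each culture. Points are limma estimates with ± 1 standard error, filled red where the adjusted p is under 0.05; HOXA9 and HOXA11 lie furthest to the H2023 side, at 3.03 and 2.74 in normal culture.

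Genes that act with HOX proteins or set their expression were taken from lists of cofactors, Polycomb, trithorax and retinoic acid genes and from the neighbours of the clusters. Among the 8 cofactor genes measured, of 9 listed, MEIS3 rose in A549 normal culture with the knockout label (log2 fold change 1.14, limma adjusted p = 0.016). Of 11 PRC2 genes EZH2, the catalytic subunit that methylates histone H3 at lysine 27, fell in A549 normal culture (-0.53, limma adjusted p = 0.048), as did EED, its partner (-0.65, limma adjusted p = 0.035), while PHF1 rose (0.60, limma adjusted p = 0.048). None of the 11 passed in A549 oncospheres. Of 12 PRC1 genes 0 passed in normal culture and CBX6 in oncospheres (0.59, limma adjusted p = 0.036). Of 15 trithorax-type genes PSIP1 rose in both cultures (0.43 and 0.77, limma adjusted p = 0.042 and 0.011).

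Of the retinoic acid and CDX list 13 of 17 were measured. In A549 normal culture RARA, RARG and the retinoic acid hydroxylase CYP26B1 rose with the knockout label (log2 fold changes 0.77, 0.85 and 1.04) and CYP26A1 fell (-0.70, limma adjusted p = 0.04). In oncospheres RXRA rose (1.11) and CRABP1 fell (-0.94, limma adjusted p = 0.03). Among 18 of 23 neighbours measured, SKAP2 and SNX10, which flank HOXA on the low-numbered side, moved in opposite directions in both A549 cultures: SKAP2 rose (1.00 and 1.04) and SNX10 fell (-1.10 and -1.22). TTLL6 and CALCOCO2, near HOXB, fell in oncospheres (-2.84 and -1.38). Of the 18, 2 were called higher and 1 lower in A549 normal culture, and 4 higher and 3 lower in A549 oncospheres. The shares of all genes were 4.54% higher and 6.28% lower in normal culture and 6.04% and 7.2% in oncospheres. No gene of these 6 lists passed in H2023 with the knockout label, where no gene did.

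With oncosphere culture in A549 wild type 8 of 11 PRC2 genes fell and 1 rose, with a median of -0.63, where 21.6% of all genes were called lower and 19.0% higher. Of 12 PRC1 genes 5 fell and 1 rose, and of 15 trithorax-type genes 6 fell and 1 rose. Of the 8 cofactor genes 1 rose and 1 fell. EZH2 fell by 1.83 on the log2 scale (limma adjusted p = 8.8e-05), and PHF19, EED and SUZ12 fell with changes of -1.30, -0.98 and -0.86, while EZH1, the alternative catalytic subunit, rose (0.44, limma adjusted p = 0.049). EZH2 and PHF19 fell in all 4 culture comparisons, and PBX3, a HOX cofactor, did so as well (-1.23 and -1.02 in A549, -1.42 and -1.57 in H2023). MEIS3 rose in A549 wild type (1.29). Whether these movements bear on the HOX values was not tested.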

How the data were processed

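Messenger RNA was sequenced from 16 libraries, 2 in each of 8 groups. The deposited values are TPM per library made by the authors, per the file headers and values, in 1 table for each line and culture. The tables also hold, per the file headers and under the column names of DESeq2, a mean normalized count over 4 libraries (a signal, made by the authors), the authors' log2 fold change with its standard error, the authors' test statistic (a score, opposite in sign to the fold change in every deposited table and not used for direction) and the authors' p-value and adjusted p-value. The submitters' processing notes name HISAT2, StringTie and GRCh38, and the annotation and the strand setting of counting are not given in the sources used here. All tables list the same 18227 genes after 119 repeated identifiers were reduced to their first entry.

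TPM was tested as log2(TPM + 1), without a filter on low values, using the trend option of limma (3.58.1, in R 4.3.3), two-sided, Benjamini-Hochberg adjusted over all genes at 0.05. Knockout comparisons used the 4 libraries of a table, culture comparisons the 8 of a line, and line comparisons the 8 wild-type libraries. Differences of effects between lines came from the deposited log2 fold changes, with a normal distribution. The method was tested on simulated data. The changes set there were larger than any limma knockout effect of a member given here, and left out genes of low level. The simulation therefore does not show how smaller changes or low members are recovered. SD is over 2 libraries. Members and gene lists were chosen with earlier results of these data known. Members named are the 4 highest of each cluster, those called in a knockout comparison by either tool, noncoding members at 1 TPM in a group, and the 5 largest calls of each culture and line comparison. A member and a cofactor gene enter the fits and counts and are not reported individually here. Alternatives were a pseudocount of 0.1, a filter at a mean of 1 TPM, rescaling without mitochondrial genes, median centring, a replicate block, other library sets and leaving out each library.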

Additional observations from a re-analysis of the deposited data

Results flagged for a closer look

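HOXB8 in A549 had a larger difference between genotypes in oncosphere than in normal culture: the 2 log2 differences were apart by 1.1087 (SE 0.22, limma adjusted p = 0.0309), with both libraries labelled knockout above both wild-type ones in each culture. Leaving out 1 library at a time gave 0.91 to 1.30, with limma adjusted p-values of 0.0436 to 0.0977.

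The remaining 6 results are differences between lines, H2023 minus A549, taken between the fold changes (log2) that the authors' deposited tables give and tested against their standard errors. HOXB8 differed by -1.6182 in normal culture (SE 0.588, adjusted p = 0.0411) and by -2.2328 in oncosphere culture (SE 0.576, adjusted p = 0.00177), being higher in A549 and lower in H2023 libraries labelled knockout, with no overlap of genotypes in any of the 4 comparisons. HOXC13 differed by -2.87 (SE 0.43, adjusted p = 1.64e-09) and -1.3265 (SE 0.428, adjusted p = 0.0195), with the same pair of directions and no overlap. HOXA11-AS differed by 3.6418 in oncosphere culture (SE 1.17, adjusted p = 0.0194). Its levels were at most 1.94 TPM in A549 and 3.38 to 6.04 TPM in H2023. HOXD8 differed by 2.0798 in oncosphere culture (SE 0.46, adjusted p = 1.61e-04), lower in A549 and higher in H2023 libraries labelled knockout.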

How the results depend on the processing

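Of 83 results on single members, recomputed under the alternatives, 553 recomputed values kept direction and side of the threshold, 154 kept direction but no longer passed, 25 newly passed and 0 changed direction. Counts of called members moved by more than 1.5 times as follows. With a filter at a mean of 1 TPM the A549 normal knockout count went from 2 to 5, the H2023 normal one from 0 to 1, the A549 culture count of the knockout label from 3 to 6 and that of H2023 from 1 to 2. With the 8 libraries of the line the A549 normal count was 6 and the H2023 normal count 1. In the authors' deposited tables the knockout counts were 5 and 11 in A549 normal and oncosphere culture and 2 and 1 in H2023. Median centring gave 1 for the H2023 normal knockout comparison and 2 for H2023 culture with the knockout label, where rescaling without mitochondrial genes and a pseudocount of 0.1 also gave 2. A pseudocount of 0.1 gave 0 for H2023 wild-type culture. Limma over 16 libraries gave 4 members for the line difference in normal culture, against 2. Calls over all genes moved too. In the A549 normal knockout comparison 827 higher and 1144 lower became 1134 and 1547 with the filter. With the 8 libraries they became 1189 and 1610. In the H2023 normal one 0 became 170 higher and 311 lower with the filter and 47 and 100 with the 8 libraries. Median centring gave 114 and 219 there.

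Leaving out 1 library at a time gave 0 to 0 in all 4 knockout comparisons, 0 to 2 and 0 to 0 for the culture differences of A549 and H2023, 2 to 10 and 1 to 2 for A549 culture (wild type, knockout label), 0 to 1 and 0 to 1 for H2023 culture, and 8 to 14 and 11 to 20 for the lines in normal and oncosphere culture. HOXB8 in A549 oncospheres kept a log2 fold change of 1.39 to 1.78, with limma adjusted p-values of 0.076 to 0.0987.

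The replicate numbers were not taken as pairs. Deviations from group means correlated between same-numbered libraries by 0.0766, 0.124, 0.0371 and 0.476 (A549 normal and oncosphere, H2023 normal and oncosphere). A replicate block gave 2 members in place of 1 for H2023 wild-type culture, and 8 against 7 for A549 oncosphere knockout. Each group had 2 libraries and depth is unknown, and 4 to 8 members per table had a mean normalized count under 10.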
